A study of Mus musculus with 21 samples.

Results

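Day 2 C2C12 cells were profiled for the histone mark H3K4me3 by CUT&RUN in 4 preparations, and the comparison described here sets the libraries of frozen cells against those of cells assayed fresh. The members are 4 of the 21 libraries of the series, chosen by their labels: Frozen_Native and Frozen_Crosslinked on one side, Fresh_Native and Fresh_Crosslinked on the other. C2C12 is a mouse myoblast line that fuses into myotubes when serum is withdrawn. All 4 preparations came from cells grown in 20% FBS and held for 48 h at confluence in 2% horse serum. Frozen cells had been stored at -80 °C in FBS with 10% DMSO, and fresh cells were used on the day of the assay. Native cells received no fixative, whereas cross-linked cells were exposed to 0.1% formaldehyde for 5 min, before freezing in the frozen sample. Each preparation was sequenced as 1 library, so freezing cannot be told apart from any other difference between single libraries, and no value below has a replicate error. The deposited lists give peaks but no read numbers, so the depth of each library is unknown.

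H3K4me3 is laid down around the start sites of genes that are transcribed or poised for transcription, and a broad domain of it often covers the promoters of genes that define a cell type. In CUT&RUN an antibody tethers micrococcal nuclease to the mark inside permeabilized cells, and the DNA cut out around it is sequenced. Because no chromatin is sheared or precipitated, the assay depends on how intact and how accessible the nuclei are, and freezing or fixing cells beforehand is a common convenience. In differentiating myoblasts the mark is known from the promoters of the myogenic transcription factors and of the contractile genes that they switch on.

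Peaks of the 4 lists that shared at least 1 bp were merged into 26145 regions. Of these, 387 regions held a peak in both frozen lists and in neither fresh list, and are called frozen-only regions. The reverse, a peak in both fresh lists and in neither frozen list, held for 39 regions, the fresh-only regions. The sets made up 1.48% and 0.149% of all merged regions. Both sets were defined by these peak calls, so their sizes describe the 4 libraries and were not tested.

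Examples of promoters that regions of the sets overlapped are given here, from RefSeq with build GRCm38.p6. Each runs from 250 bases before the gene start to 50 bases after it, 5′ to 3′ on the strand of the gene, with every CG in capitals. The first 3 are protein-coding promoters whose 300 bases a frozen-only region overlapped, the strongest of this kind, ranked 6, 9 and 23 of 387 by the smaller of their -log10 q values, at chr12:19387620-19387919 on the plus strand (Gm5784), chr5:34288275-34288574 on the minus strand (Zfyve28, a FYVE-domain protein of endosomes) and chr2:150181505-150181804 on the plus strand (Gm14139). They hold 30, 48 and 5 CG, so CG-rich and CG-poor promoters both occurred in the set. The 112 promoters with a peak in both frozen and neither fresh list had a median of 7.5 CG. Chosen by strength, these examples do not stand for the whole set.

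Gm5784: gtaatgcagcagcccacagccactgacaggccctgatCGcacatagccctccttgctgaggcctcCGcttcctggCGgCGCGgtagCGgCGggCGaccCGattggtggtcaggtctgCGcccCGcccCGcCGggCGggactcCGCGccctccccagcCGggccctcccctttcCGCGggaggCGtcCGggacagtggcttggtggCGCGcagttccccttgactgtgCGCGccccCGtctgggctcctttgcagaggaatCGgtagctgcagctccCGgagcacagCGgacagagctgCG
Zfyve28: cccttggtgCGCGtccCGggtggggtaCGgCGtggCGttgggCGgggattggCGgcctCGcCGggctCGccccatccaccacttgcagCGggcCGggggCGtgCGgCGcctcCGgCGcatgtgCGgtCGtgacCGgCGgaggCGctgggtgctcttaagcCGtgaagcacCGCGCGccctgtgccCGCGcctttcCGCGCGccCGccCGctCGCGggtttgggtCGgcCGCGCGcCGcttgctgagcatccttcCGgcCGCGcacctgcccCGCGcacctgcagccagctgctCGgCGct
Gm14139: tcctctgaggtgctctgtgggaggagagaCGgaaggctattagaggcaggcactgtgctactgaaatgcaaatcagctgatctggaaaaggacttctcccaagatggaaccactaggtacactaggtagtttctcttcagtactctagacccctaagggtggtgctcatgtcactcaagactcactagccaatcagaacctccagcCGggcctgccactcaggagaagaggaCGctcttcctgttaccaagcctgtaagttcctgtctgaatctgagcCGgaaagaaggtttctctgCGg

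For fresh-only regions the same rule gave, at ranks 19 and 31 of 39, the promoters of Chrm4, a muscarinic acetylcholine receptor, at chr2:91921939-91922238 on the plus strand, and of Pik3r5, a regulatory subunit of phosphoinositide 3-kinase gamma, at chr11:68431875-68432174 on the plus strand. They hold 30 and 16 CG. Myog, the transcription factor that drives the onset of myoblast differentiation, is shown beside them as a promoter with a peak in all 4 lists whose width differed among the preparations, at chr1:134289754-134290053 on the plus strand, with 9 CG.

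Chrm4: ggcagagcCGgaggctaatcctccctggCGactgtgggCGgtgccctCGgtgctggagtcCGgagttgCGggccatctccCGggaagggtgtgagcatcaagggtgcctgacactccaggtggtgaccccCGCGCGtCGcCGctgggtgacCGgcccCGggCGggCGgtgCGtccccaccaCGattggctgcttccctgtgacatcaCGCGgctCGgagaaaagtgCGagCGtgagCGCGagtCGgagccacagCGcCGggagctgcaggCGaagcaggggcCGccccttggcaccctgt
Pik3r5: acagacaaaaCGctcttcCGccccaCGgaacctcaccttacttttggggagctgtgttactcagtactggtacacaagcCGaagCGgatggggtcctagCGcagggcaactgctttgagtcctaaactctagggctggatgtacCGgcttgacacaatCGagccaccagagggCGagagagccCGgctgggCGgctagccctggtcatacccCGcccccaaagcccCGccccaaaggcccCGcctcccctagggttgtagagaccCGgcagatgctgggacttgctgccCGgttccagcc
Myog: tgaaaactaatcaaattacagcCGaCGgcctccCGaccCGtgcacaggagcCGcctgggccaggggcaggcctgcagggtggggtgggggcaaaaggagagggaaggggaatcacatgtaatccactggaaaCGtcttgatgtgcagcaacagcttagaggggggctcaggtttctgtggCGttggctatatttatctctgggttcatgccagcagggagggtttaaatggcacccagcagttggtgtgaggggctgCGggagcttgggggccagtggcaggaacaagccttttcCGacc

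The frozen native list held 15431 peaks, the frozen cross-linked list 20245, the fresh native list 14372 and the fresh cross-linked list 20203. Peak numbers therefore followed fixation more than freezing, with the native lists lowest on both sides. Median peak width was 1844 bp in the frozen native list, 1456 bp in the frozen cross-linked list, 1483 bp in the fresh native list and 1348 bp in the fresh cross-linked list. Frozen cells had the wider peaks within each way of fixing, yet the sides overlapped, since the frozen cross-linked list lay below the fresh native one. The peaks covered 31.7, 35.1, 23.6 and 32.5 Mb in the same order of lists. Fold enrichment, which the peak caller gives against its own background estimate, had a median of 12.8 in the frozen native list, 5.84 in the frozen cross-linked list, 5.86 in the fresh native list and 4.99 in the fresh cross-linked list. Among peaks with a -log10 q from 2 to 3, a value that moves with depth, the medians were 3.29, 3.02, 3.17 and 2.93. A two-sided exact permutation test over the 4 libraries gave p = 0.667 for the number of peaks, the covered length, the median width and the median fold enrichment, and 2 libraries against 2 cannot give a p under 0.333. That test leaves fixation out of account. Within the pairs, frozen over fresh gave a ratio of 1.07 native and 1.002 cross-linked for the number of peaks, 1.34 and 1.08 for the covered length, 1.24 and 1.08 for the median width and 2.19 and 1.17 for the median fold enrichment. Each of these ratios was above 1, with 1 library behind each value. The median -log10 q of 39.5 and 12.5 in the frozen native and cross-linked lists lay above the 11.4 and 9.93 of the fresh ones, which gave this smallest p of 0.333 in the same exact permutation test.

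Of the 26145 merged regions, 12250 (46.9%) held a peak in all 4 lists, and 10310 (39.4%) in 1 list alone. Regions found in 1 list alone numbered 4398 for frozen cross-linked, 3965 for fresh cross-linked, 1387 for fresh native and 560 for frozen native cells. The 387 frozen-only regions stood beside 984 regions found in both cross-linked and neither native list, and the 39 fresh-only regions beside 16 found in both native and neither cross-linked list. A frozen and a fresh list of different fixation shared 209 regions (frozen native with fresh cross-linked) and 34 regions (frozen cross-linked with fresh native) that no other list held. Every combination of exactly 2 lists that included the fresh native one thus held at most 39 regions, and every combination of 2 without it at least 209. The same list was the one most often missing: 1783 regions lacked a peak only in fresh native cells, against 66 lacking it only in frozen native, 42 only in fresh cross-linked and 25 only in frozen cross-linked cells. Without the fresh native library, 429 regions were in both frozen lists and not in the fresh cross-linked list, and 4010 were in the fresh cross-linked list alone, so the order of the set sizes turned. Without the fresh cross-linked library the sets held 2165 and 1443 regions, without the frozen native library 4866 and 68, and without the frozen cross-linked library 1021 and 105. Leaving out a library reduces its side to a single list, which then sets the size of that side's set.

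**Figure D1:**
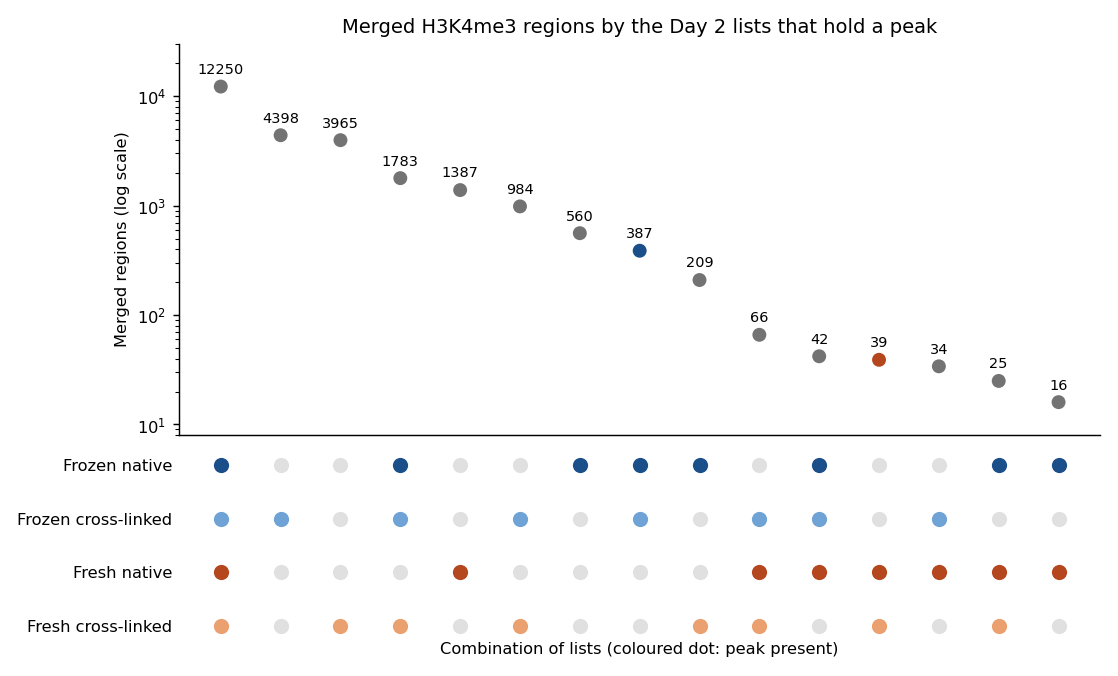
Number of merged H3K4me3 regions (log scale) for each of the 15 combinations of Day 2 lists, with coloured dots below marking the lists that hold a peak. The frozen-only set (387 regions, dark blue) and the fresh-only set (39 regions, red) are small beside the 12250 regions found in all 4 lists.

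Compared pair by pair, 80.1% of frozen native peaks overlapped a fresh native peak, and 88.9% of fresh native peaks overlapped a frozen native one. In the cross-linked pair the shares were 75.6% of frozen peaks and 78.5% of fresh peaks. Measured in base pairs, the shared length was 79.3% of the joint length for the frozen lists with each other and 67.9% for the fresh lists with each other. Frozen native cells had 79.1% in common with fresh cross-linked cells, more than with fresh native cells (70.5%). The frozen and fresh cross-linked lists shared 76.6%. The lowest value, 64.1%, was that of frozen cross-linked with fresh native cells, and all 3 comparisons that involved the fresh native list lay below the 3 that did not.

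Frozen-only regions held weak peaks. Their median -log10 q was 2.25 in the frozen native list and 2.02 in the frozen cross-linked list, at percentiles 8.28 and 24.1 of all peaks of those lists, and 140 of the 387 had a q-value of at most 0.01 in both. The smallest -log10 q among them were 1.38 and 1.07, close to the threshold of the lists. The strongest by the smaller of both -log10 q values lay inside 1700063D05Rik at chromosome 9 from 41207612 to 41207991, with a -log10 q of 4.88 native and 5.62 cross-linked and a fold enrichment of 4.32 and 4.15. The next lay at the start of the long non-coding gene 9330175M20Rik on chromosome 1, from 51333493 to 51334075, with a -log10 q of 4.79 and 4.80. Both regions also held a peak in all 3 lists of cycling C2C12 cells, and neither had a fresh Day 2 peak within 20 kb, the nearest being 20977 and 40156 bp away.

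Others among the strongest frozen-only regions lay inside genes. The region inside Cntnap5b, a contactin-associated adhesion protein, spanned chromosome 1 from 100231515 to 100231959, with a -log10 q of 4.70 native and 4.24 cross-linked. Ckap5, which speeds microtubule growth, held one at chromosome 2 from 91537796 to 91538223 (4.33 and 3.93). Inside Stard3, a sterol carrier of late endosomes, the region at chromosome 11 from 98361152 to 98361449 (4.11 and 3.86) lay 225 bp from a fresh peak. Of all frozen-only regions, 49 lay within 1 kb of a fresh peak, 113 (29.2%) within 5 kb, and the median distance was 19436 bp. The Gm5784 region, over the first promoter printed above, reached the highest native value of the set, a -log10 q of 9.76, with 3.79 in cross-linked cells. A region outside genes at chromosome 1 from 15072871 to 15073636 (5.11 and 3.75) and the start of Gm40003 on chromosome 2 (3.79 and 3.74) completed the 8 strongest.

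The widest frozen-only region lay outside genes at chromosome 11 from 71983549 to 71985535, 1987 bp in all, of which the cross-linked peak covered 1987 bp and the native peak 778 bp. Gm14635 on the X chromosome followed with 1545 bp, 24 bp from a fresh peak, and then Scara5, a ferritin receptor, with 1544 bp at chromosome 14 from 65666382 to 65667925. None of these 3 held a peak in a cycling list. The only gene of the fixed lists with its start or boundary near a frozen-only region was Tnni2, the fast skeletal troponin I, with a region of 389 bp on chromosome 7 and a -log10 q of 1.54 native and 1.37 cross-linked. A fresh cross-linked peak lay elsewhere near a boundary of Tnni2, so that by gene it counted as present in 3 lists. Other frozen-only regions near gene starts, named here after their values were seen, included Cdkn1c, an inhibitor of the cell cycle (459 bp, -log10 q 4.68 and 1.994), Htr2b, a serotonin receptor (1453 bp, 2.00 and 2.65), and Tert, the catalytic subunit of telomerase (503 bp, 1.46 and 2.53).

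Fresh-only regions were of a different make-up. Of the 39, 3 lay on the mitochondrial chromosome and 4 on the unplaced sequence JH584304, and the strongest region was the mitochondrial one from 10953 to 16188, which spans CYTB, ND4, ND5 and ND6, with a -log10 q of 7.26 native and 9.35 cross-linked. Its fold enrichment was only 1.24 and 1.26. The peaks of the mitochondrial regions from 2783 to 6452 (COX1, ND1 and ND2) and from 116 to 2107 (the ribosomal RNA genes) had a fold enrichment between 1.13 and 1.29. Mitochondrial DNA carries no histones. Every one of the fresh H3K4me3 lists held 4 mitochondrial peaks, over 9781 bp native and 10318 bp cross-linked, while both frozen Day 2 lists and all 3 cycling lists, whose cells were frozen too, held 0. With the PSME3 antibody, in contrast, all 4 Day 2 lists held 2 mitochondrial peaks, over 11331 to 11766 bp, frozen cells included. The 3 cycling PSME3 lists held 0, 0 and 5 such peaks, over 7530 bp in the last, so mitochondrial calls varied among replicates of one preparation.

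Among fresh-only regions on the nuclear chromosomes, the strongest lay outside genes near the beginning of the chromosome 9 sequence, from 3024088 to 3024469. Its -log10 q was 6.63 native and 5.25 cross-linked. Sfi1, a centrosomal protein, held the next at chromosome 11 from 3179898 to 3180037 (5.24 and 6.07) and a further one at 3184307. The 5S ribosomal RNA gene n-R5s149 lay near the region at chromosome 8 from 123622063 to 123622318 (3.61 and 6.15). Copies of this gene family share reads, so the position is uncertain. Inside Gphn, the scaffold protein of inhibitory synapses, the region from 78350898 to 78351091 on chromosome 12 had 3.02 and 6.54. A region of JH584304 from 62307 to 62950 (2.49 and 2.53) closed the 8 strongest, and the 3 widest were the mitochondrial ones. Only 10 of the 39 had a q-value of at most 0.01 in both lists. The median -log10 q of the fresh-only regions was 1.55 native and 2.08 cross-linked, at percentiles 13.6 and 26.4 of those lists. They were thus weak peaks too, like the frozen-only ones. Chrm4, printed above, had a -log10 q of 1.496 native and 2.08 cross-linked, and Pik3r5 one of 1.22 and 2.23.

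Both sets were narrow. The median width was 563 bp for frozen-only regions (quartiles 375.5 and 749 bp) and 508 bp for fresh-only regions (quartiles 425 and 857 bp), against 2475 bp for regions in all 4 lists (1808 and 3388 bp). Of frozen-only regions, 36 were wider than 1 kb, and of fresh-only regions 8. On chromosomes 1 to 19 and X alone the fresh-only median was 483 bp over 32 regions, of which 3 were wider than 1 kb. The peaks themselves were shorter than the merged regions, with medians of 384 bp native and 359 bp cross-linked in the frozen-only set and 264 and 347 bp in the fresh-only set. Regions found in 1 list alone had a median width of 214 bp. In the other combinations of exactly 2 lists the medians ran from 485 to 625.5 bp, so such a width was not particular to either set.

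The position of the regions relative to genes is given for both sets, and its difference between them was not tested. Of frozen-only regions, 106 or 27.4% lay within 1 kb of a gene start, or of either boundary where the strand of the gene was not known (95% interval by the exact method of Clopper and Pearson 23.0 to 32.1%, which covers counting error alone), 50.1% elsewhere inside a gene and 22.5% outside genes. Of fresh-only regions, 11 or 28.2% lay near a gene start (15.001 to 44.9%), 38.5% inside and 33.3% outside genes. With peaks within 1 kb counted as overlapping the shares were 28.8% for frozen-only and 16.7% for fresh-only regions, at a q-value of at most 0.01 they were 32.9% and 42.9% (14 fresh-only regions), and with equal list lengths 33.8% and 39.4%. Which set had the higher share thus turned with the setting. Both main shares lay below the 86.7% of regions in all 4 lists and the 48.1% of all merged regions, and above the 10.1% of regions in 1 list alone. These last ran from 7.43% for fresh native, 9.33% for fresh cross-linked and 9.48% for frozen cross-linked to 27.7% for frozen native cells, and regions in frozen native and fresh cross-linked cells alone had 30.1%. Regions in both cross-linked lists and neither native list reached 15.04%. By list, 74.6% of frozen native, 58.9% of frozen cross-linked, 75.7% of fresh native and 59.8% of fresh cross-linked peaks lay near a gene start. The native share was the higher on both sides, and frozen over fresh gave a ratio of 0.985 in both pairs.

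**Figure D2:**
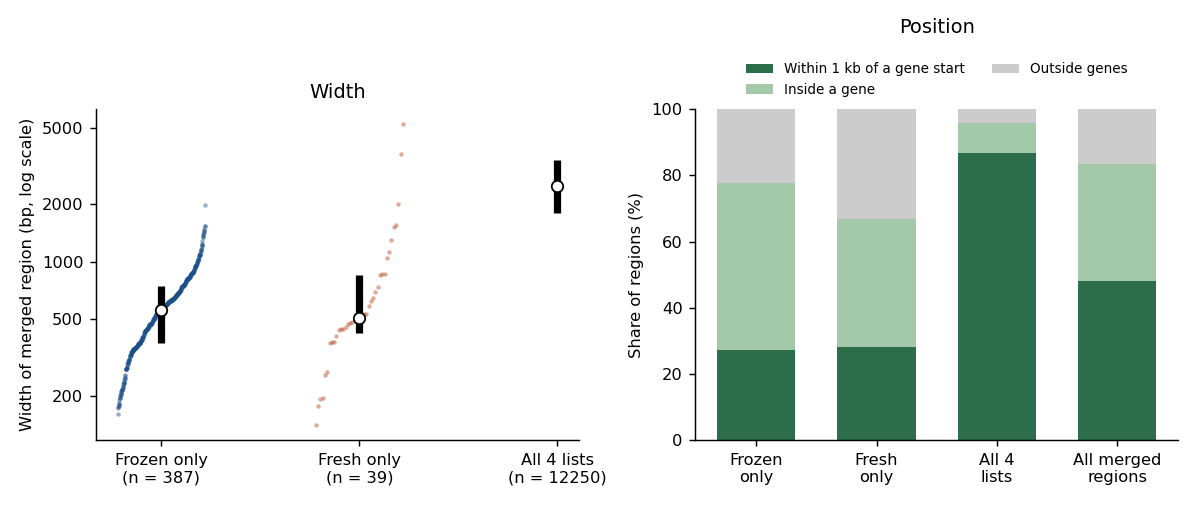
Left, width in bp (log scale) of every frozen-only and fresh-only region (coloured points, sorted), with the median (white circle) and quartiles (black bar) of these sets and of the regions in all 4 lists. Right, share of regions within 1 kb of a gene start, inside a gene or outside genes; both sets lie near 27.4 and 28.2% at gene starts, below the 86.7% of regions in all 4 lists.

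The sets differed in how often cycling cells had a peak at the same place, a reading that played no part in their choice. Of the 387 frozen-only regions, 338 or 87.3% (83.6 to 90.5%) overlapped a peak of the pooled cycling H3K4me3 list, and 247 (63.8%) held a peak in all 3 cycling replicates. Of the 39 fresh-only regions, 13 or 33.3% (19.1 to 50.2%) overlapped the pooled list, and 6 all 3 replicates. Without the 7 regions on mitochondrial and unplaced sequence, the pooled share was 40.6% (23.7 to 59.4%). Among all merged regions it was 69.7%, among those in 1 list alone 28.9%, and among those missing only from fresh native cells 94.1%. Regions in 1 list alone ran from 4.90% for fresh native to 74.6% for frozen native cells. The 209 regions found in frozen native and fresh cross-linked cells alone, a pair that crosses the sides, reached 85.2%, close to the frozen-only share. The binomial intervals cover counting error alone. Regions are not replicates, so the difference between the sets was not tested. All cycling cells were frozen without fixation, so the state of the cells and their handling cannot be told apart here. PSME3, a proteasome activator that bound promoters in the cycling libraries, had a pooled peak at 10.3% of frozen-only and 7.69% of fresh-only regions. The share was 32.4% for regions in all 4 lists, 18.01% for all merged regions and 2.41% for regions in 1 list alone. Regions in both cross-linked lists and neither native list had 11.99%. Of the 39 fresh-only regions, 3 held such a peak, and of the 32 on chromosomes 1 to 19 and X, 1 did. PSME3 peaks of the Day 2 lists were too few to compare the sets. The frozen native, frozen cross-linked, fresh native and fresh cross-linked PSME3 lists overlapped 181, 75, 20 and 18 of the 26145 merged regions, 0 of the frozen-only ones and 4, 4, 7 and 6 of the 39 fresh-only ones, mitochondrial regions included.

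The sets also differed in their shares by chromosome. Of fresh-only regions, 11 lay on chromosome 8 and 5 on chromosome 15, together 41.0% (25.6 to 57.9%), whereas 6.46% of frozen-only regions (4.22 to 9.39%) and 9.98% of regions in all 4 lists lay there. The share was 18.3% among all merged regions and 29.4% among regions in both cross-linked lists and neither native list. Chromosome 11 held 5 fresh-only regions too (12.8%), as many as chromosome 15, against 6.20% of frozen-only and 9.76% of all merged regions. Of the 11 regions on chromosome 8, 10 fell between 79767736 and 95402593, a stretch of 15.6 Mb that held none of the frozen-only regions and 1.02% of the regions in all 4 lists. The stretch runs from the first to the last of these 10 regions and chromosomes 8 and 15 were picked after the counts were seen, so these shares describe the set and are no independent contrast. Genes inside or near which they lay included Anapc10, Ddx39a, Dand5, Best2, Abcc12 and Adcy7, and the highest of their smaller -log10 q values was 1.67. The same stretch held 123 of the 1387 regions found in fresh native cells alone (8.87%), 431 of 3965 in fresh cross-linked cells alone (10.9%), 307 of 4398 in frozen cross-linked cells alone (6.98%) and 2 of 560 in frozen native cells alone (0.357%). Over the whole of chromosomes 8 and 15 the shares of such regions were 32.2% for fresh native, 33.5% for fresh cross-linked, 26.4% for frozen cross-linked and 6.43% for frozen native cells. Regions in 1 list alone were thus frequent there in 3 of the preparations, frozen cross-linked included, and less so in frozen native cells. Without chromosomes 8 and 15, 362 frozen-only and 23 fresh-only regions remained, an alternative chosen after seeing the data.

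**Figure D3:**
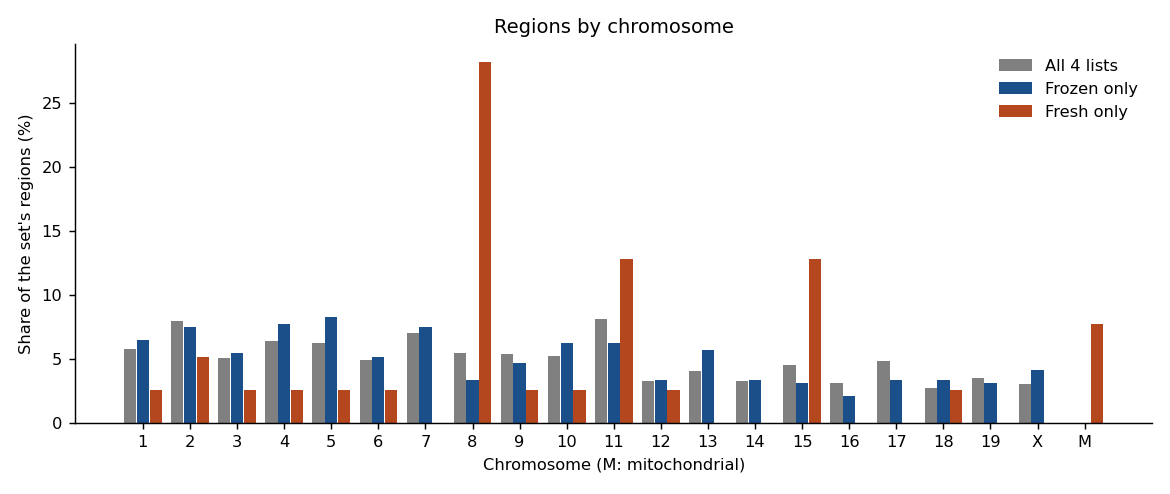
Share of the regions of each set, in percent, on each chromosome (M, mitochondrial; unplaced sequences are not drawn), for regions in all 4 lists, frozen-only and fresh-only regions. Fresh-only regions have their highest share on chromosome 8 (28.2%), hold 12.8% each on chromosomes 11 and 15, and are the only group with regions on the mitochondrial chromosome.

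At the regions that all preparations shared, the frozen libraries had wider peaks, mainly in the native pair. For the 11117 regions with exactly 1 peak in each list, median widths were 2069 bp in frozen native, 2189 bp in frozen cross-linked, 1625 bp in fresh native and 2067 bp in fresh cross-linked cells. The fresh native library was the narrow one, and the other 3 lay close together. Within the native pair the median log2 ratio of widths, frozen over fresh, was 0.35 (quartiles 0.19 and 0.56), or 1.28-fold, and 94.3% of the regions were wider in frozen cells. Within the cross-linked pair it was 0.06 (quartiles -0.06 and 0.21), or 1.05-fold, and 64.4% were wider. Native peaks reached further at both ends, by a median of 204 bp on the left and 205 bp on the right, and 79.8% of them extended past the fresh peak on both sides. Cross-linked peaks gained 34 and 39 bp, and 36.5% extended on both sides. Across regions the Spearman correlation of the 2 ratios was 0.081. Of the 514 regions at least 1.5-fold wider in the cross-linked pair, 58.2% were also at least 1.5-fold wider in the native pair, against 23.5% of all 11117, and these were 11.5% of the 2610 widened in the native pair. Of the 514, 373 belonged to the narrowest of 4 equal groups by mean width, where the shares were 67.3% and 53.5%. Fold enrichment at the same regions was 2.31-fold higher in frozen than in fresh native cells and 1.23-fold higher in the cross-linked pair, medians that move with depth and background and are therefore not on one scale.

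**Figure D4:**
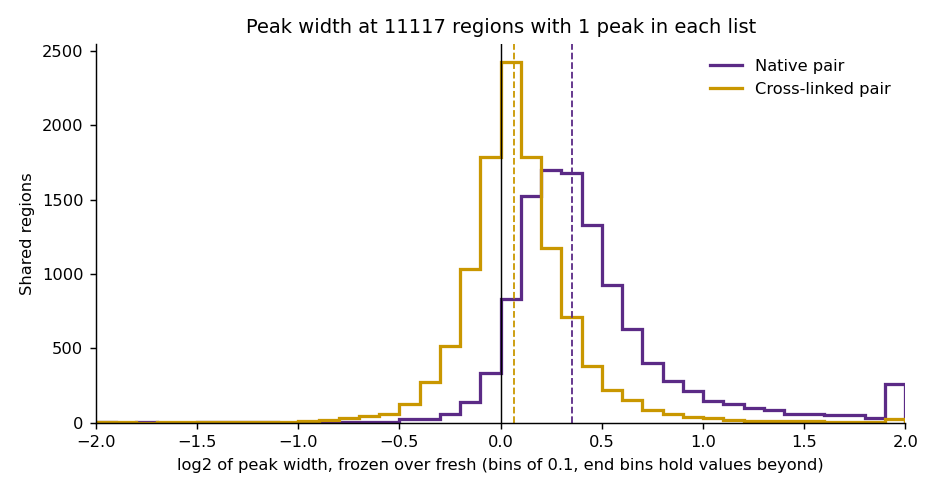
Histogram of the log2 ratio of peak width, frozen over fresh, at the 11117 regions with 1 peak in each list, for the native pair (purple) and the cross-linked pair (yellow), with dashed lines at the medians. The native distribution is centred on 0.35, the cross-linked one on 0.06, close to 0.

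As a ratio, widening was larger where peaks were narrow and where they lay away from gene starts. In the native pair the median log2 ratio was 0.33 near gene starts, 0.60 inside genes and 0.64 outside genes, and in the cross-linked pair 0.06, 0.08 and 0.09. Regions away from gene starts were also the narrower ones. Median fresh native widths were 1724 bp near gene starts, 826 bp inside and 553.5 bp outside genes. Position was not compared at equal width. By mean width, with the regions cut into 4 equal groups, it fell from 0.64 in the narrowest group to 0.36, 0.32 and 0.25 in the wider ones in native cells, and from 0.09 to 0.05 in cross-linked cells. In bp, median native widths were 698 fresh and 1143.5 frozen in the narrowest group, and 2909.5 and 3518 in the widest, where the gain was the larger. A region was called wider or narrower where both pairs changed by at least 1.5-fold in the same direction. By this rule 299 regions (2.69%) were wider in frozen cells and 2 (0.018%) narrower, while 101 changed by that much in opposite directions in the pairs. Of the 299, 251 belonged to the narrowest of these 4 groups, and 54.2% lay near a gene start, against 86.7% of all 11117. They grew from median widths of 405 bp in fresh native and 740 bp in fresh cross-linked cells to 1109 bp and 1381 bp in frozen cells. Counted in single pairs, 2610 native regions were wider and 38 narrower by 1.5-fold, against 514 wider and 153 narrower in the cross-linked pair. Fresh lists also split shared regions more often, with more than 1 peak in 479 (fresh native) and 745 (fresh cross-linked) of the 12250 regions in all 4 lists, against 148 in frozen native and 254 in frozen cross-linked cells.

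Ranked by the smaller of its 2 ratios, the most widened shared region lay inside Zbtb46, a zinc finger transcription factor known from dendritic cells, at chromosome 2 from 181458228 to 181460262. Its peak measured 1544 bp in frozen native, 2035 bp in frozen cross-linked, 286 bp in fresh native and 426 bp in fresh cross-linked cells, which is 5.40-fold native and 4.78-fold cross-linked. The region near the start of Plxnc1, a semaphorin receptor, measured 965, 733, 151 and 154 bp in the same order of lists. At Col27a1, a fibrillar collagen gene, the widths were 1052, 832, 135 and 179 bp, the largest native ratio of the group at 7.79-fold. Kif24, a kinesin of the centriole, had 1518, 1917, 328 and 473 bp. At the start of C77080, which faces Gm12976, they were 1703, 3081, 459 and 720 bp. In each of these 5 regions both frozen peaks were wider than both fresh ones, as the rule requires of each pair. Both narrowed regions lay inside genes. Inside Nfkb1, a subunit of the transcription factor NF-kB, the peak measured 234 and 229 bp in frozen native and cross-linked cells and 627 and 1179 bp in fresh ones, and inside Traf5, an adaptor of TNF receptors, 385 and 490 bp against 727 and 1096 bp.

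The muscle markers bore the mark in every preparation. All 8 muscle markers had a peak at the gene start in all 4 lists, and none of 8 markers of other cell types (Alb, Cd3e, Ptprc, Snap25, Krt5, Pou5f1, Ins2 and Hbb-bs) had one in any list. Cycling cells had a peak in all 3 lists at 3 of the muscle markers, Myod1, Des and Cdh15, and in none at Myog, Acta1, Ckm, Mymk and Tnnt3. Myog had a peak of 3127 bp in frozen native, 2773 bp in frozen cross-linked, 1261 bp in fresh native and 3433 bp in fresh cross-linked cells. The fresh native peak was the narrow one, and in the cross-linked pair the fresh peak was the wider, so the log2 ratios were 1.31 and -0.31. At Ckm, the muscle creatine kinase, the widths were 1085, 423, 317 and 1955 bp, and here too the pairs differed in sign (1.78 and -2.21). Acta1, the skeletal muscle actin, had 3576, 5488, 2158 and 1873 bp, with both frozen peaks above both fresh ones. Des, the intermediate filament protein of muscle, had 3917, 5691, 3071 and 4011 bp, with the frozen native value below the fresh cross-linked one. Tnnt3, the fast troponin T, had 2600, 1650, 1475 and 1414 bp. Myod1, the regulator that commits cells to the muscle lineage, had 3916, 4239, 3498 and 3387 bp. Cdh15, the cadherin of myoblasts, had 4265, 5185, 4011 and 4428 bp, and the fusion protein Mymk 2694, 2886, 2733 and 2738 bp, close to each other in all 4 lists. In all, 7 of the 8 were wider in frozen native and 6 in frozen cross-linked cells.

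**Figure D5:**
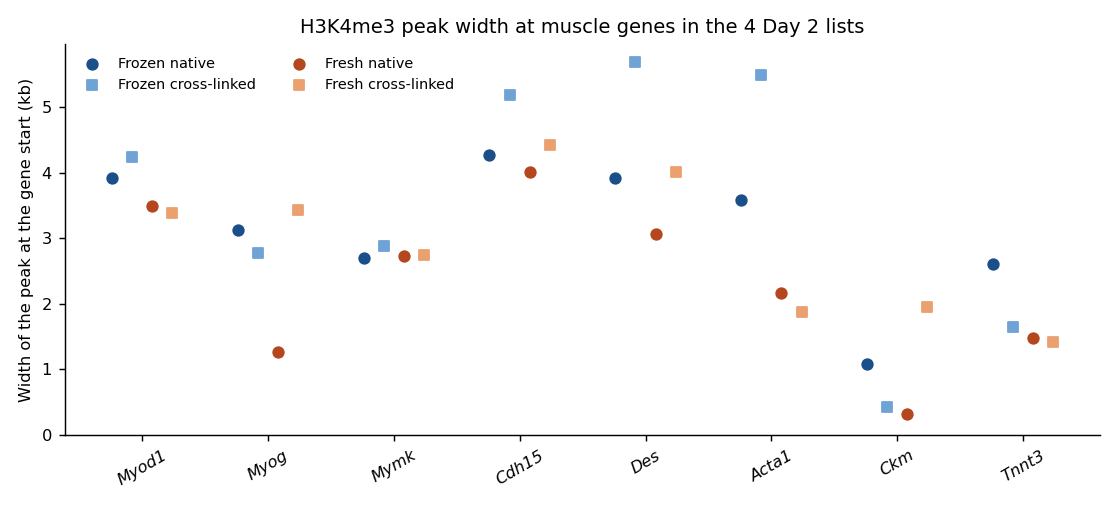
Width in kb of the H3K4me3 peak at the start of 8 muscle genes in frozen (blue) and fresh (orange) cells, native (circles) and cross-linked (squares), 1 library each. Mymk lies between 2694 and 2886 bp in every list, whereas Myog drops to 1261 bp in the fresh native list alone.

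No gene of the 10 fixed lists had a peak near its start in both lists of one side and in neither of the other. A peak near the gene start in both frozen and neither fresh list was found for 138 of 49980 genes (0.276%), and the reverse for 39 (0.078%), of which 30 were mitochondrial. Of the 138 genes, 96 had a frozen-only region near the start. A call by gene can also turn on where a wide peak ends, as with Rad21, a cohesin subunit counted among the 39 although each list held a peak in it. Of the 75 protein-coding genes among the 138, 55 (73.3%) had a peak in all 3 cycling lists and 7 in none. Among the 372 protein-coding genes without a peak in the fresh native list alone, 86.3% had one in all 3. A high share was thus not particular to the frozen-only genes.

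Both the presence and the width of the peaks varied among the lists of genes. Of all genes 27.5 to 29.6% had a peak near the start, depending on the library, and of protein-coding genes 50.7 to 53.3%. Over all genes the median log2 width ratio was 0.33 in the native and 0.07 in the cross-linked pair, and 94.8% and 65.4% of the genes with a peak in both lists of the pair were wider in frozen cells. Myogenic regulators, with a peak at 11 of 12 genes in every list, had 0.59 and 0.17, and 11 of 11 were wider in frozen native and 8 of 11 in frozen cross-linked cells. Pax7, the transcription factor of satellite cells, spanned 15462 bp in frozen native, 13671 bp in frozen cross-linked, 4183 bp in fresh native and 9160 bp in fresh cross-linked cells, so that the fresh native peak was the narrowest and both frozen peaks were wider than both fresh ones. Sarcomere and contractile genes had a peak at 31 of 42 genes in frozen native, 30 in frozen cross-linked, 28 in fresh native and 31 in fresh cross-linked cells, 27 of them in all 4 lists, and 11 had none in any. Their medians were 0.50 and 0.22, with 26 of 28 (92.9%) wider in the native and 22 of 30 (73.3%) in the cross-linked pair, a native share just under that of all genes. Among them Myl1, an essential myosin light chain, had 2638, 3529, 449 and 2115 bp, Actc1, the cardiac actin of early muscle, 3203, 848, 343 and 490 bp, and Tpm1, a tropomyosin, 9798, 9995, 4900 and 9566 bp. These genes were chosen after their values were seen. Fusion and adhesion genes had 0.40 and 0.12, with 15 and 13 of 16 wider.

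Lists of genes that respond to handling were described in the same way. Immediate early genes, switched on within minutes by serum or stress, had a peak at 33 of 33 genes in every list and median ratios of 0.28 and 0.08. Heat shock and chaperone genes had 0.34 and 0.06. For p53, stress and cold genes the medians were 0.21 in the native and 0.16 in the cross-linked pair, below all genes in the first and above them in the second. Ribosomal protein genes had 0.31 and 0.08, and S phase and mitosis genes 0.38 and 0.10 with a peak at 42 of 42 genes in every list. Developmental transcription factors had 0.47 and 0.08, with a peak at 31 of 76 genes in frozen native, 33 in frozen cross-linked, 26 in fresh native and 33 in fresh cross-linked cells. Of 41 markers of other cell types, 37 had no peak in any list. Genes of a list are not replicates, and these medians are descriptions.

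In CG content, the promoters of frozen-only genes lay close to the promoters of all genes. The 32851 promoters of the table had a median of 2.33 CG per 100 bases, with quartiles of 1.00 and 6.67. Those with a peak within 1 kb in all 4 lists (12290) had a median of 7.33, and those without a peak (19250) 1.00. The 112 promoters with a peak in both frozen and neither fresh list had 2.50, with quartiles of 1.33 and 7.08, and the 6 fresh-only ones 5.0. Promoters missing only from the fresh native list (452) had 3.17. GGGCGG, the core of the Sp1 motif, was found on either strand in 41.1% of frozen-only promoters, against 67.2% of those with a peak in all 4 lists, 15.3% of those without and 35.7% of all. CAGCTG, an E-box, occurred in 20.5% of frozen-only promoters, 14.8% of those with a peak in all 4 lists, 16.9% of those without a peak and 16.3% of all. It occurred in 23.1% of the 104 promoters with a peak in both cross-linked and neither native list, whose median was also 2.50 CG per 100 bases, and in 17.9% of those missing only from the fresh native list. In the order of the first 4 groups TATAAA occurred in 16.1, 6.34, 18.4 and 13.6%. TGANTCA, the AP-1 motif, occurred in 9.82, 4.35, 9.91 and 7.81%, where frozen-only promoters lay close to those without a peak. A match is a run of letters and not a bound site.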

How the data were processed

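Peak lists of H3K4me3 CUT&RUN in 4 Day 2 preparations of C2C12 cells were compared (1 library each). Per the labels and the paper's methods, the authors used Trim Galore for trimming, Bowtie2 for alignment to mm10 and MACS2 for peak calling, per library for Day 2. Tool versions are not given in the sources used here. The deposited lists give a fold enrichment (a ratio to the background MACS2 estimated) and -log10 p-values and -log10 q-values, with q below 0.1 throughout. Lists hold no read numbers, so depth is unknown, and a deeper library lists weaker sites. The 3 cycling lists per antibody, the authors' pooled cycling lists and the Day 2 PSME3 lists served for overlaps only, and IgG lists were not analysed here.

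Peaks sharing at least 1 bp were merged over the 4 lists with Python 3.11.15, numpy 2.4.6, pandas 2.3.3 and scipy 1.17.1. Gene starts came from the RefSeq promoter table for 27025 of 49980 genes (GRCm38.p6); for the other 22955 both gene boundaries were used, as the gene table gives no strand. Peaks on unplaced sequence count as outside genes. The merging, set and width functions were tested on simulated lists. Library values were compared by a two-sided exact permutation test; intervals are 95% Clopper-Pearson and cover counting error only.

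Members, gene lists and named genes were chosen with earlier results of these data known. Named are the 8 strongest regions of each set by the smaller -log10 q and the 3 widest, the 5 most widened and narrowed shared regions (2 narrowed exist), listed genes in a set region and the fixed markers; others are named as chosen later, and some genes are not reported here. Alternatives covered q-value, overlap, list length, libraries, chromosomes, distance and gene type.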

Additional observations from a re-analysis of the deposited data

How the results depend on the processing

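Of 8 alternatives that kept all 4 libraries, all gave 362 to 520 frozen-only regions, within 1.5 times of 387. The fresh-only count fell from 39 to 25 at a q-value of at most 0.05, to 14 at 0.01 and to 23 without chromosomes 8 and 15 (added after seeing the data), and rose to 60 with peaks within 1 kb taken as overlapping. With each library left out in turn the frozen-only count ran from 429 to 4866 and the fresh-only count from 68 to 4010; the set widths from 242 to 792 bp and from 195 to 567 bp; and the shares near a gene start from 11.2 to 29.6% and from 8.18 to 35.3%. The order of the set sizes held in all alternatives except without the fresh native library (429 against 4010).

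The frozen-only median width of 563 bp became 757.5 bp at a q-value of at most 0.01, 782.5 bp with 14372 peaks per list, 367 bp with native peaks counted singly, 378 bp with these peaks and an overlap of 50% of the shorter peak, 384 bp for native and 359 bp for cross-linked peaks. The fresh-only width of 508 bp became 255, 245, 264 and 347 bp in the last 4 of these and 866.5 bp with peaks within 1 kb joined. The frozen-only share near a gene start of 27.4% became 32.9% at a q-value of at most 0.01, 33.8% with equal lists, 40.8% within 3 kb, 17.8% with protein-coding genes and 18.3% with starts of the promoter table only (added), where the fresh-only share became 12.8%. For every other change the cause was not tested; peaks are shorter than merged regions by construction, and fewer genes give fewer starts.

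The log2 width ratio was positive in all alternatives. With summed widths it was 0.36 native, 0.071 cross-linked and 0.22 over both pairs (main value 0.21), and at a q-value of at most 0.01 it was 0.34 native and 0.21 over both; the pairs alone gave 0.35 and 0.065. No paired analysis was possible because the Day 2 libraries carry no replicate numbers, other than by the native and cross-linked pairs that fixation sets, whose values are given apart and without a test. The lack of read numbers and replicates limits every comparison: no difference between frozen and fresh cells can be set against a replicate error.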

Other observations

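The regions that only the fresh native library missed were a larger group than either set. They numbered 1783, with a median width of 931 bp, and 28.9% lay near a gene start. Of them 94.1% overlapped the pooled cycling list. By gene, 604 of 49980 (1.21%) had a peak near the start in every list but the fresh native one. Of these, 372 were among the 21900 protein-coding genes, and 321 of the 372 (86.3%) had a peak in all 3 cycling lists. Developmental transcription factors among them, 5 of the 76 listed, were Foxa2, Hoxb4, Gata6, Nkx2-5 and Sox2. Sox2 had a peak of 770 bp in frozen native, 625 bp in frozen cross-linked and 602 bp in fresh cross-linked cells, and Foxa2 one of 597, 526 and 1130 bp. Hoxb4 had 1461, 506 and 284 bp. Among sarcomere genes, Myom2, a protein of the M band, had no fresh native peak within 1 kb of a boundary of the gene. The other lists held peaks of 5481, 5962 and 5997 bp there. Merged regions missing only from fresh native cells were at most 5085 bp wide. This call by gene may therefore turn on where a wide peak ends. Mylk2, the skeletal myosin light chain kinase, had 562, 564 and 660 bp in the same 3 lists.

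Few marker genes of other cell types had any peak. Cd4 had one of 289 bp in frozen native, 1053 bp in frozen cross-linked and 226 bp in fresh cross-linked cells, Krt14 and Syt1 had one in the frozen native list alone (297 and 376 bp), and Elane in the fresh cross-linked list alone (451 bp). Hspa1a, an inducible heat shock gene, had a peak of 287 bp in frozen native and of 228 bp in fresh cross-linked cells, and none in the others.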
